A study of Mus musculus with 9 samples.

Results

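Haemoglobin and erythroid genes were followed in whole mouse retina: the adult alpha globins Hba-a1 and Hba-a2, the adult beta globins Hbb-bs and Hbb-bt, Alas2 and Slc4a1. Every non-control probe whose transcript accession maps to one of these 6 symbols was taken, which gave 5 probes for 5 genes, out of 39429 probes on the array and 23892 genes tested. Hbb-bs had no probe under this rule and has no values here. The signal of the 3 globins and of Alas2 differed 4.31-fold to 5.24-fold between the 3 pools of the AAP group, 1.06-fold to 1.16-fold between the 3 HAN pools and 1.96-fold to 2.77-fold between the 3 PBS pools, and the 4 genes moved together from pool to pool. No member differed between the groups beyond this spread. The narrow HAN spread of Alas2 did not hold under another background correction, normexp. There its log2 difference from its mean over the 9 pools was -0.22, -0.34 and 1.23 in HAN 1 to HAN 3. The 3 globins lay at -0.36 to -0.14 in HAN 3 under that correction.

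Haemoglobin is the oxygen carrier of red blood cells and is built from alpha and beta globin chains, each holding a haem group. Alas2 is the erythroid form of aminolevulinate synthase, the enzyme of the first step of haem synthesis, and Slc4a1 is the anion exchanger of the red cell membrane. Mature mammalian red cells have no nucleus, but the young red cells called reticulocytes, which circulate in blood, still carry globin and Alas2 messenger RNA. Globin transcripts have also been described in some neurons and in the retinal pigment epithelium.

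The groups were right eyes of adult male C57BL/6 mice injected into the vitreous with AAP, with HAN or with phosphate-buffered saline (PBS), and retinas were taken on day 7. AAP and HAN are, per the series title, peptides of high affinity against vascular endothelial growth factor (VEGF), and the labels give 1 µM for both and word the same amount for PBS. Each group had 12 mice, and RNA came from pools of 4 retinas, so the p-values measure spread between pools. The tests used 1 estimate of that spread per gene, shared by the 3 groups. The wide AAP spread of the globins and Alas2 thus also enters their HAN against PBS intervals and p-values. In pooled bulk tissue, fewer cells of a type and less RNA per cell cannot be told apart, and the labels do not say whether blood was flushed from the eyes.

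Values are log2 of the processed signal minus log2 of that array's 75th percentile, called the relative log2 signal below. A value of 0 is thus a signal equal to the 75th percentile of the array. A level of one probe is not set against that of another, because probes differ in how brightly they read a transcript. The 75th percentile ran from 1340 to 2349 intensity units, 71.6% to 79.2% of spots were well above background, and Pearson's r between arrays across genes was 0.979 to 0.995 in the 36 pairs. The 12 rod photoreceptor markers and the 16 markers of retinal neurons and Mueller glia were well above background on all 9 arrays. Before the results, 2 pools must be named: skeletal muscle markers (12 of 15 tested) had a mean log2 difference from PBS of 5.36 in AAP 1 and 4.11 in AAP 3, against -0.27 to 0.32 in the other 7 pools. The arrays also lay on 3 slides: slide 1 held AAP 1 and the 3 PBS pools, slide 2 held AAP 2, AAP 3, HAN 1 and HAN 2, and slide 3 held HAN 3.

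The DNA before the start sites of Hba-a1, Hbb-bt and Alas2 is shown, as 200 bases up to the start site from RefSeq (GRCm38.p6). Any link of these bases to the shared pattern of the globins and Alas2 was not tested. The capitals mark 4 short motifs searched on both strands: GATAA, the core of the site read by GATA factors; CACCC, the box read by Klf1 and its relatives; CCAAT, the CCAAT box; and ATATAA, a form of the TATA box. Hba-a1 lies on the plus strand at chr11:32283472-32283671, Hbb-bt on the minus strand at chr7:103813924-103814123, and Alas2 on the plus strand at chrX:150547217-150547416.
Hba-a1: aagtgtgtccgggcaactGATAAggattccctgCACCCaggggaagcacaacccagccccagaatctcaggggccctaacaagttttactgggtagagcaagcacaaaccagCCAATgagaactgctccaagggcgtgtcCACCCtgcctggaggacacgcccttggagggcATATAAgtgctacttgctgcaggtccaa
Hbb-bt: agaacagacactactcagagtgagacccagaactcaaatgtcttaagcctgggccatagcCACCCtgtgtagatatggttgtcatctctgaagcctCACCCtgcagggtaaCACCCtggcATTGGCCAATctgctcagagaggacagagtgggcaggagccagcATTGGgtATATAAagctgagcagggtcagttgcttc
Alas2: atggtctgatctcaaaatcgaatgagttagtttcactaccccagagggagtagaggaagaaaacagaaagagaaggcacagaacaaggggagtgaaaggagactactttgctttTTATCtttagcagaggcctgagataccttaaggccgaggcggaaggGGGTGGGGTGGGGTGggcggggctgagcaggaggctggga
The Hba-a1 window held all 4 motifs, with GATAA 182, CACCC 167 and 60, CCAAT 88 and ATATAA 28 bases before the start. The Hba-a2 window, on the same chromosome, was identical to it over 197 of 197 bases compared, at a shift of 3 bases. The Hbb-bt window held CACCC 3 times, CCAAT 3 times (2 of them on the opposite strand, as ATTGG) and ATATAA, and no GATAA. The Alas2 window held GATAA once, as TTATC, and CACCC 3 times, as GGGTG, all on the opposite strand. No matches overlapped one another. Such short motifs are common: of 32851 promoter windows of 200 bases, 45.5% held CACCC, 29.3% CCAAT, 18.1% GATAA and 7.30% ATATAA, and 0.219% held all 4. A match is a description of the letters and not a site shown to be bound.

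The adult alpha globins were read by a probe each. Hba-a1 (A_55_P1962303, chromosome 11) had a relative log2 signal of 3.63, 1.66 and 1.49 in AAP 1, AAP 2 and AAP 3, of 2.33, 2.25 and 2.33 in HAN 1, HAN 2 and HAN 3, and of 2.26, 1.95 and 2.93 in PBS 1, PBS 2 and PBS 3. The AAP pools thus held both the highest and the 2 lowest values, the HAN pools lay close together between them, and the groups overlapped. The group means were 2.26 ± 1.19 in AAP, 2.31 ± 0.05 in HAN and 2.38 ± 0.50 in PBS (SD, n = 3 pools each). In a limma model over all 23892 genes, with Benjamini-Hochberg adjustment, the log2 difference was -0.12 for AAP minus PBS (95% interval -1.36 to 1.11, adjusted p = 0.975), -0.08 for HAN minus PBS (-1.31 to 1.16, adjusted p = 0.977) and -0.05 for AAP minus HAN (-1.29 to 1.19, adjusted p = 0.975). These intervals are wide. For AAP against PBS they span a level of Hba-a1 between 0.389 and 2.16 times that of PBS, so the test does not show that the levels were alike.

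Hba-a2 (A_55_P1962299, chromosome 11), the second adult alpha globin, had a relative log2 signal of 5.39, 3.31 and 3.25 in AAP 1 to AAP 3, of 4.05, 3.83 and 3.97 in HAN 1 to HAN 3, and of 3.96, 3.67 and 4.63 in PBS 1 to PBS 3. Before scaling, its intensity was 85930 in AAP 1, the highest of the 9 pools, and 12710 in AAP 3, the lowest. The means were 3.98 ± 1.22 in AAP, 3.95 ± 0.11 in HAN and 4.08 ± 0.50 in PBS (SD, n = 3 each), and the groups overlapped. The log2 difference was -0.10 for AAP minus PBS (95% interval -1.37 to 1.16, adjusted p = 0.980 by limma), -0.13 for HAN minus PBS (-1.40 to 1.13, adjusted p = 0.955) and 0.03 for AAP minus HAN (-1.23 to 1.29, adjusted p = 0.986). Hba-a1 and Hba-a2 are near-identical copies. How far each probe also reads the other copy was not tested, so the pair is uncertain as separate measurements.

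The beta globin Hbb-bt (A_55_P1973809, chromosome 7) followed the same order. Its relative log2 signal was 3.15, 1.22 and 1.05 in AAP 1 to AAP 3, 1.93, 1.81 and 1.77 in HAN 1 to HAN 3, and 1.92, 1.56 and 3.02 in PBS 1 to PBS 3. AAP 1 and PBS 3 stood above the other 7 pools, and AAP 2 and AAP 3 below them. The means were 1.80 ± 1.17 in AAP, 1.84 ± 0.08 in HAN and 2.16 ± 0.76 in PBS (SD, n = 3 each). The log2 difference was -0.36 for AAP minus PBS (95% interval -1.70 to 0.98, adjusted p = 0.916 by limma), -0.33 for HAN minus PBS (-1.67 to 1.01, adjusted p = 0.892) and -0.03 for AAP minus HAN (-1.37 to 1.31, adjusted p = 0.984).

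C57BL/6 mice carry the beta globin pair Hbb-bs and Hbb-bt, while Hbb-b1 and Hbb-b2 name the pair of other strains. Hbb-b1 had no probe, and a probe that the reference table assigns to Hbb-b2 (A_55_P2038540), not a member, is given because it reads a near copy. It read 1.36, -0.65 and -0.82 in AAP 1 to AAP 3, -0.06, -0.14 and -0.23 in HAN 1 to HAN 3, and 0.14, -0.26 and 0.88 in PBS 1 to PBS 3. The order of the highest and lowest pools was that of Hbb-bt. Which beta globin transcript of these mice this probe reads was not tested.

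**Figure D1:**
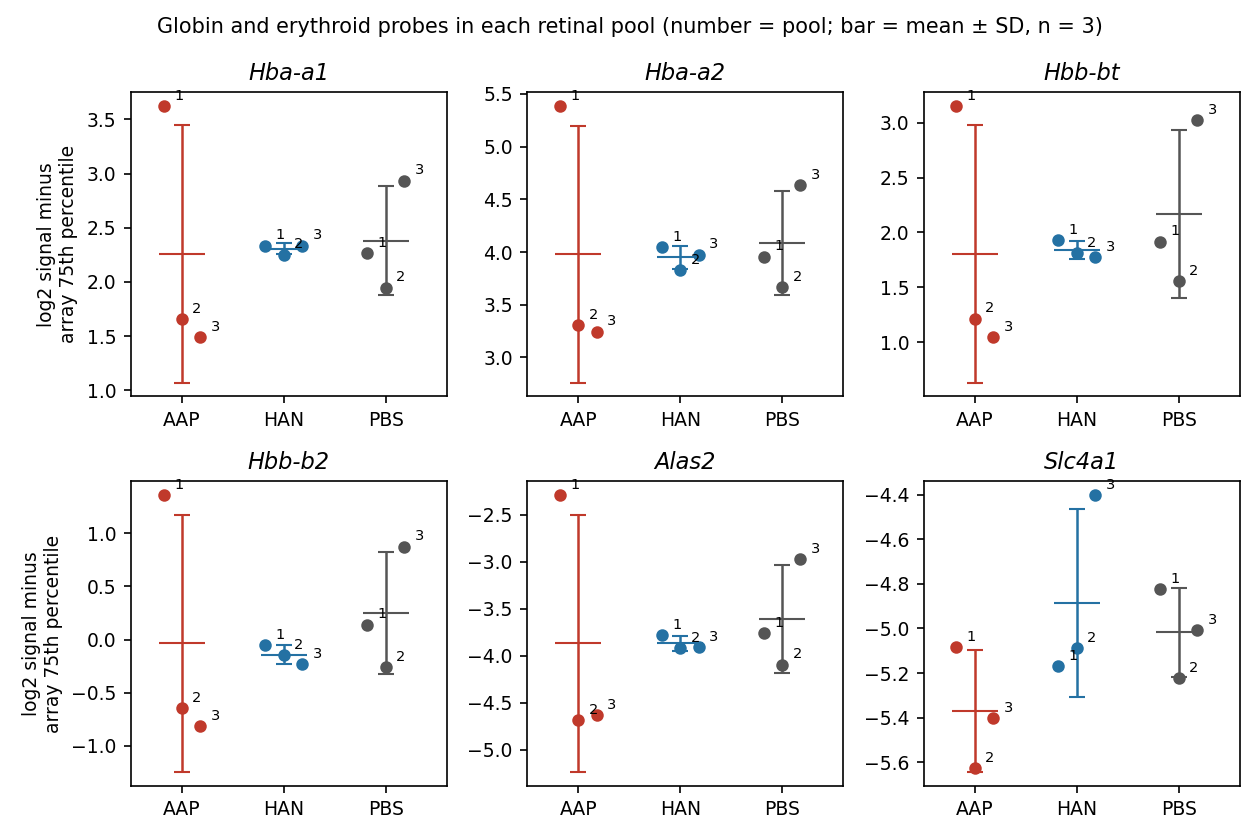
Relative log2 signal (vertical axis, log2 signal minus the array's 75th percentile) of the 5 member probes and of the Hbb-b2 probe in each pool, with groups AAP, HAN and PBS from left to right; a point is a pool, labelled with its number, and the bar is the mean ± SD over 3 pools. In the globins and Alas2 the AAP pools hold the highest value and the 2 lowest, while the HAN pools lie close together; each panel has its own vertical scale.

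Alas2 (A_51_P327451, chromosome X) makes the first intermediate of haem in red cell precursors. Its relative log2 signal was -2.29, -4.68 and -4.63 in AAP 1 to AAP 3, -3.78, -3.92 and -3.91 in HAN 1 to HAN 3, and -3.76, -4.09 and -2.98 in PBS 1 to PBS 3. The same 2 pools, AAP 1 and PBS 3, were highest, and AAP 2 and AAP 3 were lowest. Before scaling, its intensity ran from 54.2 (AAP 3) to 419 (AAP 1). The means were -3.87 ± 1.36 in AAP, -3.87 ± 0.08 in HAN and -3.61 ± 0.57 in PBS (SD, n = 3 each). The log2 difference was -0.26 for AAP minus PBS (95% interval -1.67 to 1.16, adjusted p = 0.948 by limma), -0.26 for HAN minus PBS (-1.67 to 1.16, adjusted p = 0.923) and -0.00 for AAP minus HAN (-1.42 to 1.42, adjusted p = 1.00).

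Slc4a1 (A_51_P196972, chromosome 11), which exchanges chloride for bicarbonate across the red cell membrane, was dim. Its intensity ran from 31.7 (AAP 3) to 107 (HAN 3), although the probe was well above background on all 9 arrays. Its relative log2 signal was -5.08, -5.63 and -5.40 in AAP 1 to AAP 3, -5.17, -5.09 and -4.40 in HAN 1 to HAN 3, and -4.82, -5.22 and -5.01 in PBS 1 to PBS 3. HAN 3 was the highest pool, and AAP 1 lay near the middle, unlike for the globins. The means were -5.37 ± 0.27 in AAP, -4.89 ± 0.42 in HAN and -5.02 ± 0.20 in PBS (SD, n = 3 each). The log2 difference was -0.35 for AAP minus PBS (95% interval -0.88 to 0.18, adjusted p = 0.799 by limma), 0.13 for HAN minus PBS (-0.40 to 0.66, adjusted p = 0.888) and -0.48 for AAP minus HAN (-1.01 to 0.04, adjusted p = 0.575). Under normexp background correction the Slc4a1 difference was 0.70 for HAN minus PBS (adjusted p = 0.530 by limma) and -0.70 for AAP minus HAN (adjusted p = 0.659), and neither passed. Without HAN 3 the Slc4a1 difference was -0.11 for HAN minus PBS and -0.24 for AAP minus HAN. HAN 3 also read high in dim genes at large: among 4549 genes with a mean relative log2 signal between -6 and -4 it was the highest pool in 37.1%, with a median of 0.22 above the other pools, against 3.93% to 16.1% for each of the other 8 pools. The part of this in the Slc4a1 value was not tested.

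None of the 5 members passed the threshold of an adjusted p under 0.05 in any of the 3 comparisons, and their groups overlapped in all 15. Over all genes, 1 gene of 23892 (0.00419%) passed for AAP against PBS, 1 (0.00419%) for HAN against PBS and 0 (0%) for AAP against HAN. An unadjusted p under 0.05 was reached by 6.78% of all genes for AAP against PBS, 9.66% for HAN against PBS and 8.54% for AAP against HAN, and by none of the members. Groups did not overlap in 12% of all genes for AAP against PBS, 20.9% for HAN against PBS and 14.3% for AAP against HAN. The comparisons of AAP and of HAN with PBS share the 3 PBS pools, so their values for a member are not separate evidence.

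**Figure D2:**
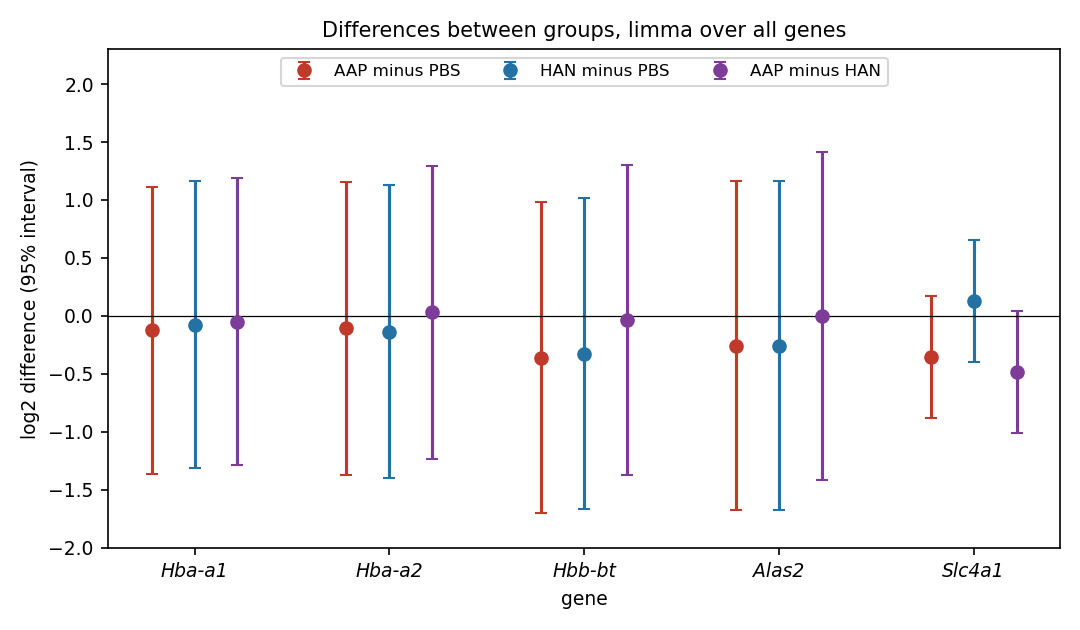
Log2 difference (vertical axis) for each member gene in AAP minus PBS, HAN minus PBS and AAP minus HAN, from the limma model over all genes; points are estimates and bars 95% intervals. All 15 intervals cross 0, and those of the globins and Alas2 are wider than those of Slc4a1.

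The direction of the globin and Alas2 differences turned on single pools. Without AAP 1, the log2 difference for AAP minus PBS was -0.81 for Hba-a1, -0.81 for Hba-a2, -1.03 for Hbb-bt and -1.04 for Alas2. Without AAP 3 it was 0.26 for Hba-a1, 0.26 for Hba-a2, 0.02 for Hbb-bt and 0.12 for Alas2. Leaving out AAP 2 in its place gave 0.18 for Hba-a1, 0.23 for Hba-a2, -0.07 for Hbb-bt and 0.15 for Alas2. Omitting PBS 3 also turned the difference of all 4 genes above 0, to 0.06 to 0.17 for AAP minus PBS and to 0.06 to 0.20 for HAN minus PBS. With both pools of raised muscle markers left out, a setting chosen after the data were seen, AAP 2 alone stood against PBS at -0.72 for Hba-a1, -0.78 for Hba-a2, -0.95 for Hbb-bt, -1.07 for Alas2 and -0.61 for Slc4a1, and the lone pool is assumed to vary like the other groups. For AAP minus HAN, the 4 genes lay at -0.79 to -0.67 without AAP 1, at 0.25 to 0.41 without AAP 2 and at 0.34 to 0.40 without AAP 3.

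Differences were also taken within slides. On slide 1, AAP 1 stood above the mean of the 3 PBS pools by 1.24 for Hba-a1, 1.30 for Hba-a2, 0.99 for Hbb-bt and 1.32 for Alas2 on the log2 scale. On slide 2, the mean of AAP 2 and AAP 3 lay below that of HAN 1 and HAN 2, with a log2 difference of -0.72 for Hba-a1, -0.66 for Hba-a2, -0.74 for Hbb-bt and -0.81 for Alas2. None of these passed with slide as a fixed block (adjusted p of 0.360 to 0.871 on slide 1 and 0.650 to 0.653 on slide 2, by limma). No slide held both HAN and PBS pools, so a HAN minus PBS value with the slide block is reached only through the AAP pools: it was 1.96 for Hba-a1, 1.96 for Hba-a2, 1.73 for Hbb-bt and 2.13 for Alas2 (adjusted p of 0.326 to 0.566). On slide 1 alone, PBS 2 and PBS 3 differed 1.96-fold in Hba-a2 and 2.77-fold in Hbb-bt, so the spread among the PBS pools lay within a slide. The AAP spread of these genes lay mainly between AAP 1 on slide 1 and the 2 AAP pools on slide 2. It cannot be told apart from a difference between slides.

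The spread itself was large for these 4 genes. In AAP, the SD over the 3 pools was larger than that of 97.7% (Hba-a1), 97.8% (Hba-a2), 97.7% (Hbb-bt) and 98.2% (Alas2) of all genes tested. In HAN, whose pools lay on 2 slides, the SD of these 4 genes exceeded that of 19.3% to 54.6% of genes. In PBS it was larger than that of 95.6% (Hba-a1), 95.4% (Hba-a2), 97.8% (Hbb-bt) and 96.4% (Alas2) of genes. Relative to the PBS mean, AAP 1 held 2.37 times the Hba-a1 signal, 2.46 times that of Hba-a2, 1.98 times that of Hbb-bt and 2.49 times that of Alas2. AAP 2 held 0.605, 0.584, 0.518 and 0.476 times the PBS mean of these genes, and AAP 3 held 0.539, 0.559, 0.460 and 0.494 times. From the lowest to the highest of the 9 pools the globins and Alas2 covered 2.11 to 2.39 on the log2 scale and Slc4a1 1.22, against a median of 0.45 over all genes.

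The globins and Alas2 kept nearly fixed proportions to one another. After each gene was centred on its own mean over the 9 pools, the mean of Hba-a1, Hba-a2 and Hbb-bt was 1.30, -0.69 and -0.83 in AAP 1 to AAP 3, 0.02, -0.12 and -0.06 in HAN 1 to HAN 3, and -0.04, -0.36 and 0.78 in PBS 1 to PBS 3. In 8 pools the 3 globins lay within 0.03 to 0.18 of one another on this scale. The exception was PBS 3, where Hbb-bt stood at 1.09 against 0.62 for Hba-a1 and 0.63 for Hba-a2. Alas2, an enzyme and not a globin, lay within 0.21 of the globin mean in every pool under the main scaling. Under normexp background correction it stood at 1.23 in HAN 3, where the 3 globins lay at -0.36 to -0.14.

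Over the 9 pools, Pearson's r with the mean of the 3 globins was 0.995 for Alas2 (Spearman's rho 0.967) and 0.989 for the Hbb-b2 probe (rho 0.967). Without AAP 1 and PBS 3, the pools farthest above the rest, it was 0.978 for Alas2 and 0.940 for Hbb-b2 (n = 7 pools). Hba-a1 and Hba-a2 had an r of 0.996 with each other, and Hbb-bt had 0.969 with Hba-a1 and 0.967 with Hba-a2. Slc4a1 did not follow as closely, with an r of 0.375 (rho 0.65), and 0.730 without AAP 1 and PBS 3. These are descriptions with no test, since probes of an array share the pool, the labelling and the scaling, and a slide held too few pools for a correlation of its own. The order of the globins, with AAP 1 highest, PBS 3 next and AAP 3 and AAP 2 lowest, was the same under 4 scalings of the arrays. Alas2 kept AAP 1 and PBS 3 highest under 3 of them, and had HAN 3 highest, at 1.23 above the gene's mean, under normexp background correction.

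**Figure D3:**
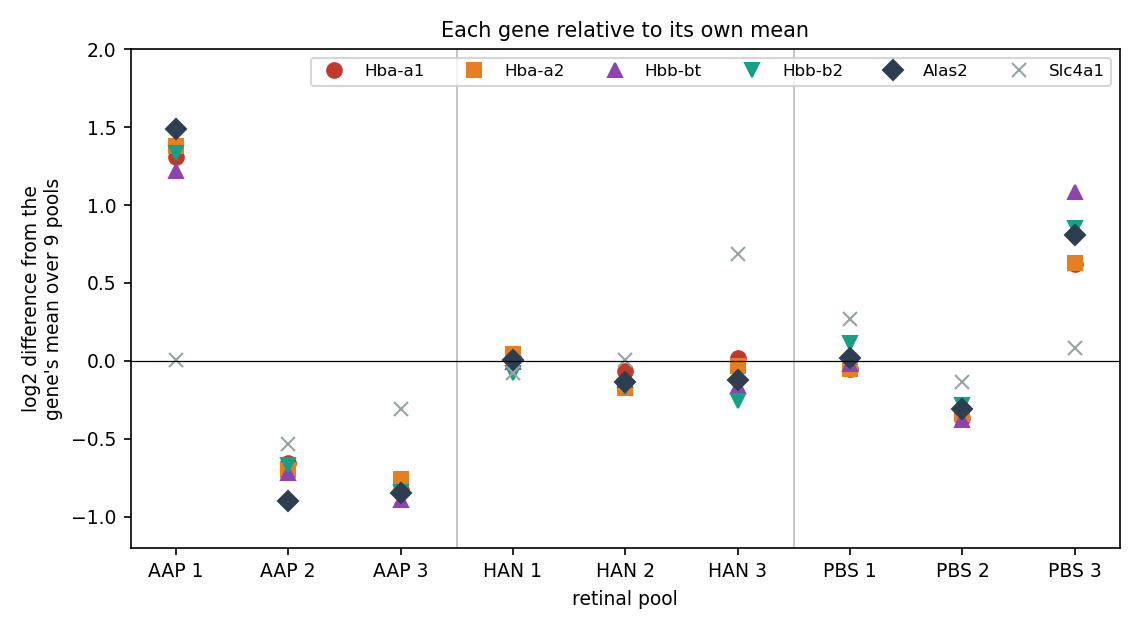
Log2 difference from the gene's own mean over the 9 pools (vertical axis) for each pool (horizontal axis), for Hba-a1, Hba-a2, Hbb-bt, the Hbb-b2 probe, Alas2 and Slc4a1. The globins and Alas2 lie close together except in PBS 3, where Hbb-bt stands at 1.09 and Hba-a1 at 0.62; they lie between 1.22 and 1.49 in AAP 1 and between -0.90 and -0.66 in AAP 2 and AAP 3, while Slc4a1 lies at 0.01 in AAP 1 and 0.69 in HAN 3.

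The other steps of haem synthesis did not vary in this way. All 14 genes of the haem synthesis list were tested and 0 passed in any comparison, and their median log2 difference was -0.01 for AAP minus PBS, -0.03 for HAN minus PBS and 0.01 for AAP minus HAN, against 0.00 over all genes in each. The 13 genes other than Alas2 covered 0.17 to 1.01 on the log2 scale over the 9 pools, with a median of 0.28, against 2.39 for Alas2. Alas1, the form of the first enzyme used outside red cells, had a relative log2 signal of 2.23, 2.16 and 2.02 in AAP 1 to AAP 3, of 2.15, 2.35 and 2.23 in HAN 1 to HAN 3, and of 2.09, 2.07 and 2.11 in PBS 1 to PBS 3. The Alas1 values of AAP 1 and of the other pools lay within 0.34 of one another. Fech, which inserts iron into the ring in the last step, covered 0.22 over the pools with an r of 0.75 to the globins, the highest of the 13. Tspo, an outer mitochondrial membrane protein that binds porphyrins, had the widest range of the 13, and it was lowest in AAP 3 (-1.28) and highest in PBS 1 (-0.28).

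**Figure D4:**
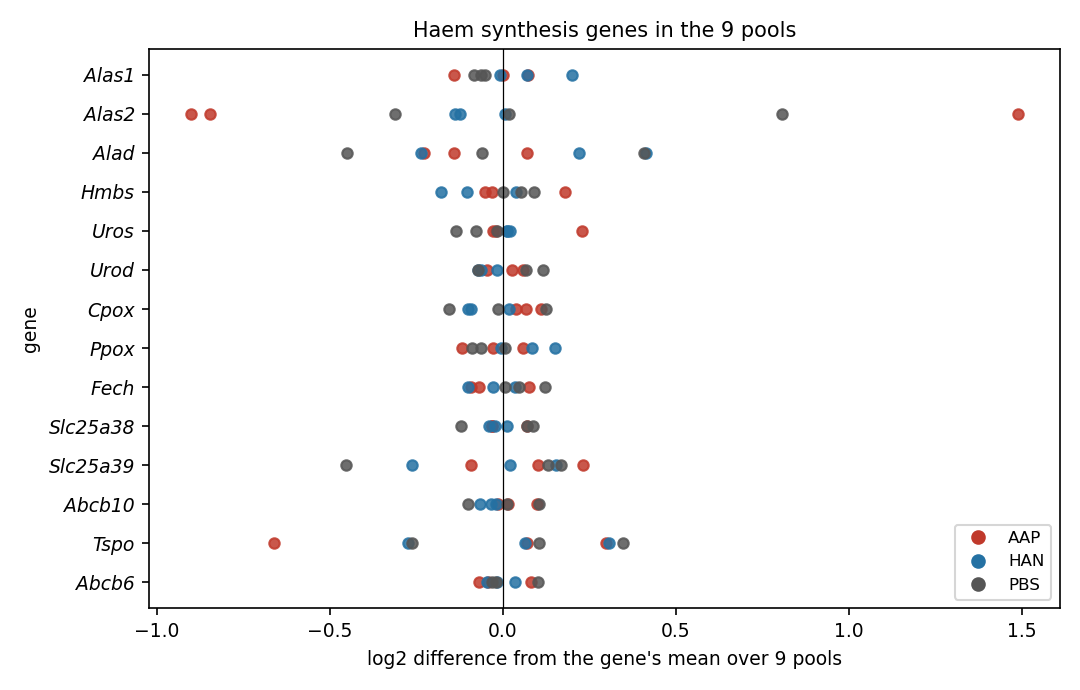
Log2 difference from the gene's own mean over the 9 pools (horizontal axis) for the 14 haem synthesis genes (vertical axis), with a point for each pool coloured by group (AAP, HAN, PBS). Alas2 reaches from -0.90 to 1.49, while the other 13 genes cover 1.01 or less.

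Globins that red cells of adult mice do not use, or that belong to other tissues, showed other patterns. Neuroglobin (Ngb), the globin of neurons and of the retina, had a log2 difference of 0.13 for AAP minus PBS (adjusted p = 0.844 by limma), 0.11 for HAN minus PBS and 0.02 for AAP minus HAN, and its 9 pools lay within 0.45. Cytoglobin (Cygb), found in many tissues, differed by 0.10 for AAP minus PBS, 0.17 for HAN minus PBS and -0.08 for AAP minus HAN, with 0 calls. Myoglobin (Mb), the oxygen store of muscle, read 3.49, -5.998 and 1.88 in AAP 1 to AAP 3, -5.78, -5.69 and -5.47 in HAN 1 to HAN 3, and -4.92, -5.84 and -5.70 in PBS 1 to PBS 3, and so was high in the 2 pools with raised skeletal muscle markers. AAP 1 and AAP 3 shared the high myoglobin. The adult globins were highest in AAP 1 and lowest in AAP 3, and the part of muscle tissue in their values was not tested.

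Of the embryonic globins, 4 of 6 had probes. Hba-x, the embryonic alpha chain, was not well above background on any array. Hbb-bh1, an embryonic beta chain, was well above background on all 9 and read -2.17 in HAN 3 against -4.71 to -3.94 in the other 8 pools. Its log2 difference was 0.35 for AAP minus PBS (adjusted p = 0.916 by limma), 0.80 for HAN minus PBS (adjusted p = 0.682) and -0.44 for AAP minus HAN (adjusted p = 0.775). Hbb-y was well above background only in HAN 3, by 1 of its 2 probes. Hbb-bh2 was above background on 2 arrays, HAN 3 among them, again by 1 of 2 probes. HAN 3 is the pool alone on slide 3 with high readings in dim genes, as described for Slc4a1, and the part of this in the embryonic globins was not tested.

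Among red cell membrane and skeleton genes, 20 were on the array, 15 were tested and 0 passed in any comparison. Their median log2 difference was 0.04 for AAP minus PBS, -0.00 for HAN minus PBS and -0.04 for AAP minus HAN. Among those not tested, the skeleton protein Epb42 and the Rh-associated glycoprotein (Rhag) were not well above background on any array. Besides Slc4a1, the genes with the smallest p-values were Slc14a1, a urea transporter, with -0.49 for AAP minus PBS (adjusted p = 0.740), Mpp1, a membrane scaffold, with -0.16 for AAP minus PBS (adjusted p = 0.755), and Icam4, an adhesion protein, with 0.25 for HAN minus PBS (adjusted p = 0.591), all by limma.

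The list of erythroid transcription factors and maturation genes held 28 genes on the array, of which 22 were tested and 0 passed in any comparison. Their median log2 difference was -0.05 for AAP minus PBS, 0.03 for HAN minus PBS and -0.06 for AAP minus HAN. Gata1 and Klf1, the transcription factors that switch on globin genes in red cell precursors, and Nfe2, which acts at the globin locus, were not well above background on any array. The gene with the smallest p-value was Tfrc, the transferrin receptor that takes up iron. Tfrc read 0.15, 0.23 and 0.26 in AAP 1 to AAP 3, 0.23, 0.38 and 0.23 in HAN 1 to HAN 3, and -0.04, -0.21 and -0.20 in PBS 1 to PBS 3. Its AAP and HAN pools all lay above the PBS pools, with a log2 difference of 0.36 for AAP minus PBS (adjusted p = 0.627 by limma) and 0.43 for HAN minus PBS (adjusted p = 0.356), neither past the threshold; groups did not overlap in 12% and 20.9% of all genes in these comparisons. Of the other 2 Tfrc probes, 1 also had no overlap with PBS and 1 overlapped. Tfrc did not follow the globins, with an r of -0.27 over the 9 pools.

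Other maturation genes named by the same rule also stayed short of the threshold. Prdx2, a peroxidase abundant in red cells, had a log2 difference of -0.22 for HAN minus PBS (adjusted p = 0.431). Hemgn, a nuclear protein of blood precursors, had 0.51 for AAP minus HAN (adjusted p = 0.574), and Bnip3l, which clears mitochondria from reticulocytes, had -0.30 for AAP minus HAN (adjusted p = 0.574), all by limma. The 14 genes that clear haem and haemoglobin gave 13 tested and 0 passed, with a median log2 difference of -0.06 for AAP minus PBS, -0.06 for HAN minus PBS and -0.05 for AAP minus HAN. Ferroportin (Slc40a1), the iron exporter, had -0.40 for AAP minus PBS (adjusted p = 0.730), the ferritin light chain Ftl1 -0.31 (adjusted p = 0.765), and the haem-haemopexin receptor Lrp1 -0.18 (adjusted p = 0.806). Transferrin (Trf), the iron carrier of plasma, had -0.38 for HAN minus PBS (adjusted p = 0.621) and was highest in AAP 1, at 5.70 against 4.64 to 5.25 in the other 8 pools, with an r of 0.80 to the globins.

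The genes whose pattern over the 9 pools was most like the mean of the 3 globins were ranked by Pearson's r among 15485 named genes. After Hbb-b2 came Zdhhc22 (r = 0.945), of the palmitoyltransferase family, P2ry1 (0.942), a receptor for ADP, Lsr (0.922), a lipoprotein receptor, Rnpep (0.921), an aminopeptidase, and Mill2 (0.915), a class I-like protein. They were followed by Rbbp8 (0.914), which acts at DNA breaks, Ctla2a (0.912), an inhibitor of cysteine proteases, Sh2b3 (0.911), a signalling adaptor, and Tnks1bp1 (0.911). Apart from Hbb-b2 and Mill2, their ranges over the pools were 0.39 to 1.21 on the log2 scale, below those of the globins. Without AAP 1 and PBS 3, r was 0.625 to 0.855 for these 9 genes and 0.940 for Hbb-b2. Alas2, as a member, was left out of this ranking.

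Markers of other blood cells and of tissues next to the retina were read beside the globins. Platelets, which share the blood with red cells, had 11 markers on the array. In AAP 1, 8 of them were well above background, against 5 to 7 in the other pools. The number was 5 in AAP 2, AAP 3, HAN 3 and PBS 3. The summed level of the 5 tested platelet markers, as log2 relative to the PBS mean, ran from -0.42 to 0.29 in AAP, from -0.23 to -0.08 in HAN and from -0.46 to 0.29 in PBS, and it was highest in AAP 1 and PBS 3. For 9 of 14 neutrophil and myeloid markers the summed level ran from -0.03 to 0.46 in AAP, from 0.01 to 0.36 in HAN and from -0.03 to 0.02 in PBS, with Ngp, Mmp8 and Cxcr2 not well above background on any array. That sum is carried by the bright Csf3r probe, and the mean difference from PBS over the same 9 markers ran the other way, from -0.37 to -0.14 in AAP and from -0.58 to -0.19 in HAN, against -0.20 to 0.16 in the PBS pools. For 16 of 17 endothelial markers the summed level ran from -0.16 to 0.14 in AAP, from -0.02 to 0.09 in HAN and from -0.03 to 0.03 in PBS. Their mean difference from PBS was highest in AAP 1 (0.24) and lowest in AAP 2 (-0.22), while AAP 3 stood at 0.05 and PBS 3 at -0.07.

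Tissue around the retina also differed between pools. The summed level of 9 of 10 fibroblast and matrix markers ran from -0.48 to 1.49 in AAP, from -0.81 to -0.21 in HAN and from -0.42 to 0.68 in PBS, and it was highest in AAP 1 but not raised in PBS 3 (-0.26). Markers of cornea, iris and ciliary body, 10 of 13, ran from -1.36 to 2.17 in AAP, from -0.32 to 0.68 in HAN and from -1.01 to 1.81 in PBS. The median difference over these 10 markers was -0.04 in AAP 1, so its sum and mean rest on some of the markers only, and was 1.65 in PBS 1 and -1.36 in AAP 3. In HAN the medians lay below 0, from -0.43 to -0.15, where the sums reach above it. The 12 skeletal muscle markers ran from 0.16 to 5.45 in AAP, from 0.04 to 0.20 in HAN and from -0.13 to 0.07 in PBS. Lens markers, 19 of 19, ran from -1.75 to 1.87 in AAP, from 0.65 to 1.24 in HAN and from -1.98 to 1.02 in PBS. In AAP they were highest in AAP 2 and lowest in AAP 3, and the globins were low in both pools. In PBS 3, where the globins were high, the lens markers stood at 0.96. Pigment epithelium and choroid markers, 11 of 12, ran from -0.63 to 0.35 in AAP, from -1.04 to 0.61 in HAN and from -0.14 to 0.17 in PBS. Their sum was highest within AAP in AAP 1, where the median difference was -0.22. The part of any of these tissues, or of blood left in the vessels, in the globin values was not tested.

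**Figure D5:**
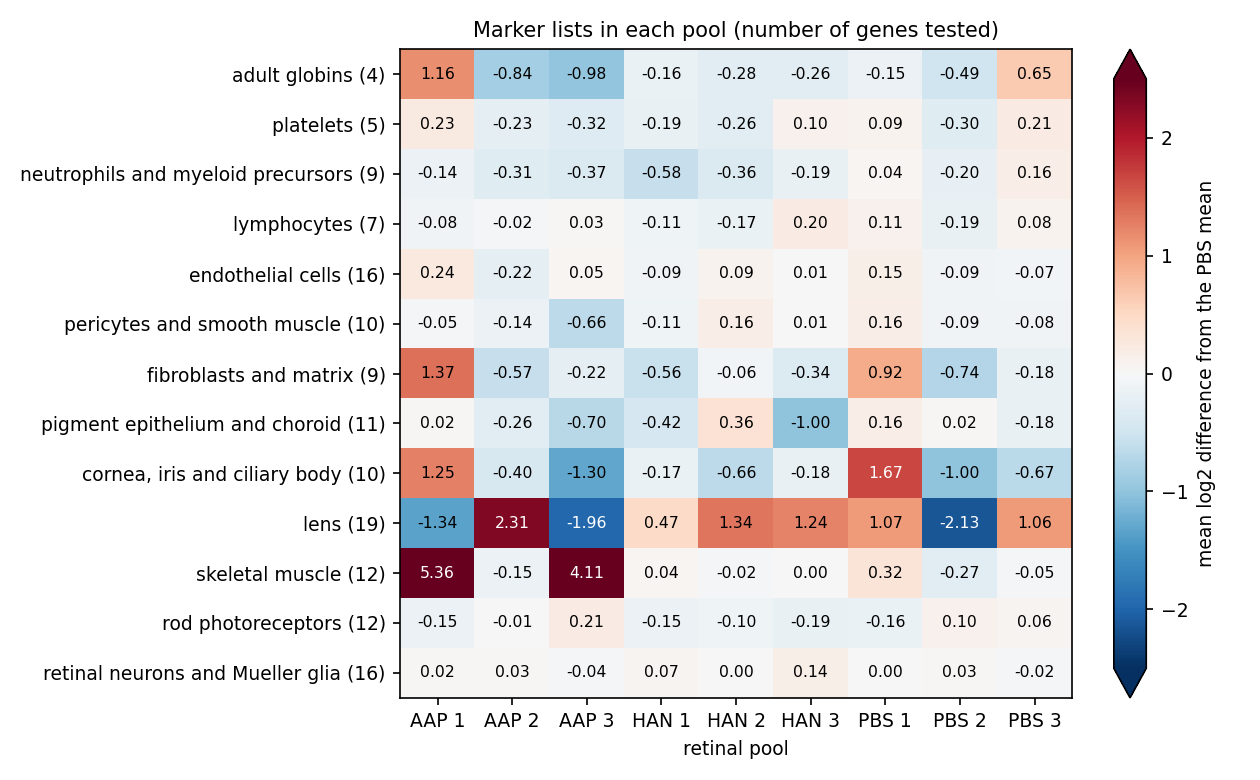
Mean log2 difference from the PBS mean (colour and printed value) for the adult globins and 12 marker lists (vertical axis, with the number of genes tested) in each pool (horizontal axis). The globins, here with the Hbb-b2 probe, stand at 1.16 in AAP 1 and 0.65 in PBS 3 and at -0.84 and -0.98 in AAP 2 and AAP 3, while skeletal muscle is raised in AAP 1 and AAP 3 and the rod and retinal neuron lists stay within 0.21 of 0; colours beyond 2.5 are cut off.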

How the data were processed

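The authors deposited scanner files and 1 table of values. Intensity was, per the file headers, read with Agilent Feature Extraction 11.0.1.1 (1 dye, Cy3) and background-subtracted and detrended within the array, without normalisation between arrays, and the design was annotated on mm9. The deposited table holds the same intensity: at least 99.7% of values equalled the scanner mean within a relative tolerance of 0.0001. The authors' own group tests are not given in the sources used here.

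Control and outlier spots were left out, log2 intensity minus the array's 75th percentile was taken, and 29275 probes stayed, each well above background on every array of some group. A gene was represented by its brightest kept probe, and 26055 probes were named through RefSeq accessions (GRCm38.p6). limma 3.58.1 (R 4.3.3) fitted 1 mean per group over 9 arrays, two-sided, with 6 residual degrees of freedom and Benjamini-Hochberg adjustment at 0.05. It was also run on simulated data in which a gene had the same spread in every group. That run does not cover the unequal group spreads of the globins and Alas2. The number of arrays limits the precision. The rule for named genes took the members, the globin and haem synthesis lists, up to 4 genes with the smallest p of 3 erythroid and clearance lists, and the 10 genes most like the globins. The members and all 19 lists were chosen with earlier results of these data known. Replicate numbers gave no pairing: the deviations of 9 same-numbered pairs correlated at -0.28 to 0.40, with 3 over 0.1. Alternatives covered scaling, background correction, filters, probe choice, slide and replicate blocks, and left-out pools.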

Additional observations from a re-analysis of the deposited data

How the results depend on the processing

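The 15 member differences were recomputed under 20 alternatives each, 300 values in all, of which 49 had the other direction and 0 passed the threshold (adjusted p 0.326 to 1.00 by limma). With slide as a fixed block the log2 difference for AAP minus PBS was 1.24 for Hba-a1, 1.30 for Hba-a2, 0.99 for Hbb-bt and 1.32 for Alas2, for HAN minus PBS 1.96, 1.96, 1.73 and 2.13 for the same genes, and for AAP minus HAN -0.66 for Hba-a2. With slide as a random block (correlation 0.11) it was 0.063 for Hba-a1 and 0.087 for Hba-a2 in AAP minus PBS, 0.16 for Hba-a1, 0.11 for Hba-a2 and 0.015 for Alas2 in HAN minus PBS, and -0.022 for Hba-a2 in AAP minus HAN. Under normexp on the median signals, added after the data were seen, AAP minus PBS was 0.091 for Alas2 and 0.0020 for Slc4a1, HAN minus PBS 0.38 for Alas2 and, in the same direction as before but larger, 0.70 for Slc4a1, and AAP minus HAN -0.70 for Slc4a1, 0.044 for Hba-a1 and 0.013 for Hbb-bt. Quantile normalisation turned AAP minus HAN to -0.035 for Hba-a2 and 0.036 for Alas2, and leaving out AAP 1 and AAP 3 turned it to -0.64 for Hba-a2. The planned normexp on mean signals was not run, because the files used here hold median signals. The cause of these turns was not tested.

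Leaving out each pool in turn moved AAP minus PBS over -0.81 to 0.26 for Hba-a1, -0.81 to 0.26 for Hba-a2, -1.03 to 0.069 for Hbb-bt and -1.04 to 0.15 for Alas2. The range for HAN minus PBS was -0.29 to 0.20 for Hba-a1, -0.34 to 0.14 for Hba-a2, -0.63 to 0.10 for Hbb-bt, -0.50 to 0.061 for Alas2 and -0.11 to 0.27 for Slc4a1. For AAP minus HAN it was -0.73 to 0.34 for Hba-a1, -0.67 to 0.40 for Hba-a2, -0.71 to 0.34 for Hbb-bt and -0.79 to 0.41 for Alas2.

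Counts of all genes called were small and unsteady. For AAP minus PBS, 1 gene passed; the count was 0 without a filter on dim probes, under normexp and under quantile normalisation, 46 with slide as a fixed block, 52 without AAP 1 and AAP 3, and 0 to 43 when single pools were left out, the 43 without AAP 2. For HAN minus PBS, 1 gene passed, against 0 under normexp, 2 with slide as a fixed block and 1 to 10 with a pool left out, the 10 without HAN 1. For AAP minus HAN, 0 genes passed, against 48 without AAP 1 and AAP 3 and 0 to 28 with a pool left out, the 28 without AAP 2. With the replicate number as a block the counts were 0 for AAP minus PBS, 0 for HAN minus PBS and 0 for AAP minus HAN (unadjusted p under 0.05 in 1467, 2055 and 1762 genes), and the member differences kept their values; the samples share only a number, so no pairing was used.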

Other observations

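Some genes of the lists above, tested or not, also stood apart in single pools. The genes in this paragraph were chosen after their values were seen. Haptoglobin (Hp), which binds free haemoglobin in plasma, had a relative log2 signal of -1.51 in AAP 1, against -5.32 to -4.57 in the other 8 pools. The haemoglobin scavenger receptor Cd163 and the red cell antigen Kel were well above background in AAP 1 only, at -5.74 and -6.37. So were the platelet genes Ppbp (-4.90) and Gp9 (-5.70), picked from a list of 11. Over the 5 platelet markers tested, the median log2 difference from the PBS mean was 0.12 in AAP 1. Pf4, a platelet chemokine that retinal microglia and macrophages also express, read -1.46 in AAP 1 and -1.49 in PBS 3, against -3.55 to -1.85 in the other 7 pools.

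Haem oxygenase Hmox1, which opens the haem ring, had a pattern of its own: it read 1.099 in AAP 2, where the adult globins were low, against -1.78 to 0.59 in the other 8 pools. Its second probe was also highest in AAP 2, at -2.42 against -3.51 to -2.65. Blvrb, a biliverdin reductase abundant in red cells, had an r of 0.85 to the globins over the 9 pools. It read -0.84 in AAP 1, the highest pool, and -1.73 in AAP 3, the lowest. The maturation list it belongs to did not share this pattern as a whole. There r was -0.67 for Ube2l6, -0.20 for Prdx2, 0.02 for Bnip3l and 0.66 for Isg20. None of these genes passed the threshold between groups or, where not tested, had a group with all arrays above background.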
